A study of Mus musculus with 4 samples.

Results

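The autophagy machinery and its cargo receptors are described here as a set of 40 genes, chosen by symbol from a list of core factors, out of 24411 genes in the count files. All 40 symbols were found. Their transcripts were counted in BV2 cells, a microglial line made from mouse brain. They are labelled as CRISPR-Cas9 knockouts of PU.1, an ETS transcription factor encoded by Spi1. There were 2 libraries of cells given 10 ng/ml of LPS (lipopolysaccharide, a bacterial cell wall component sensed through TLR4) and 2 of untreated cells. The knockout label is shared by both groups, wild-type cells are not analysed here, and the labels do not say whether the line is a single clone. The LPS exposure is 2 h in the source name and 4 h in the title of the same samples, and the conflict was not settled. The comparison asks how LPS changes expression in these cells. It says nothing about autophagic flux, which is a property of proteins and membranes.

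Transcript of Spi1 itself was present, at 745 and 958 reads in the LPS libraries and 844 and 743 reads in the untreated libraries, so these counts do not check the edit. Gene counts totalled 3256197 and 3749159 in the LPS libraries and 4502105 and 4115011 in the untreated libraries. All 10 myeloid and microglial markers passed the filter on low counts. Their summed level was 3250 and 3480 CPM in the LPS libraries and 2860 and 2850 CPM in the untreated libraries. Single markers moved in both directions. Laptm5 (log2 fold change -1.4) and Csf1r (-0.21) fell and Cd68 did not pass. Ptprc, Itgam, Aif1, Tyrobp, Fcgr3, Adgre1 and Cx3cr1 rose. Aif1 had few reads, 12 and 10 in the LPS libraries and 9 and 6 in the untreated libraries. CPM set a gene's reads against the library's total after TMM scaling, a correction for differences in RNA make-up. On this scale Spi1 had 258 and 291 CPM in the LPS libraries, against 161 and 164 CPM in the untreated libraries. That is a 1.69-fold rise (log2 fold change 0.75, SE 0.09, adjusted p = 8.8e-10 by edgeR), and its cause was not tested. Fibroblast, astrocyte, oligodendrocyte and lymphocyte lists each summed to at most 1.39 CPM in any library, and the neuron and epithelial lists were at 0. Of the 3 endothelial markers, Pecam1 was at 0 and Kdr carried the list's sum of 30.1 and 27.0 CPM in the LPS libraries against 14.9 and 14.2 CPM in the untreated libraries. Its part in the results below was not tested. The ribosomal RNA precursor Rn45s took 20.9% and 20% of gene counts in the LPS libraries and 14.6% and 19% in the untreated libraries.

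Macroautophagy encloses cytoplasm in a double membrane and delivers it to the lysosome. The ULK kinase complex starts the process, a class III phosphatidylinositol 3-kinase marks the growing membrane with PI3P, and ATG9 vesicles and the lipid transporter ATG2 supply lipid. A pair of ubiquitin-like conjugation systems then attaches ATG8 proteins (the LC3 and GABARAP proteins) to the membrane, where receptors such as p62 and optineurin bind them and bring in cargo. In macrophages this machinery takes up bacteria and damaged mitochondria and restrains inflammatory signalling.

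LPS moved the transcripts of this pathway in both directions. Of the 40 genes, 39 could be tested, and 10 rose and 10 fell at an edgeR adjusted p below 0.05. Over all 9992 tested genes 51.9% were called, 26.6% as higher and 25.3% as lower, so the share of autophagy genes called, 51.3%, lay at the background. Their median log2 fold change was 0, as over all tested genes. The cargo receptor genes Optn and Sqstm1 and the membrane protein gene Vmp1 rose at least 2-fold. The lipid transporter gene Atg2a, the kinase gene Ulk1 and Atg16l2 fell at least 2-fold, Ulk1 no longer so after GC correction (log2 fold change -0.68). These 3 rises and 3 falls of 2-fold or more stand against 9.47% and 7.73% of all tested genes. The CPM ranges of the groups did not overlap for 27 of the 39 genes, with LPS above in 13 and below in 14, beside 75.1% of all tested genes (37.5% above and 37.6% below). The split depends on the scaling. With library sizes alone 5 autophagy genes were higher and 19 lower, beside 13.8% and 47.8% of all tested genes. DESeq2 called 11 of the 39, beside 33.3% of all tested genes. In bulk RNA a lower level in every cell and fewer cells with the transcript cannot be told apart.

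**Figure D1:**
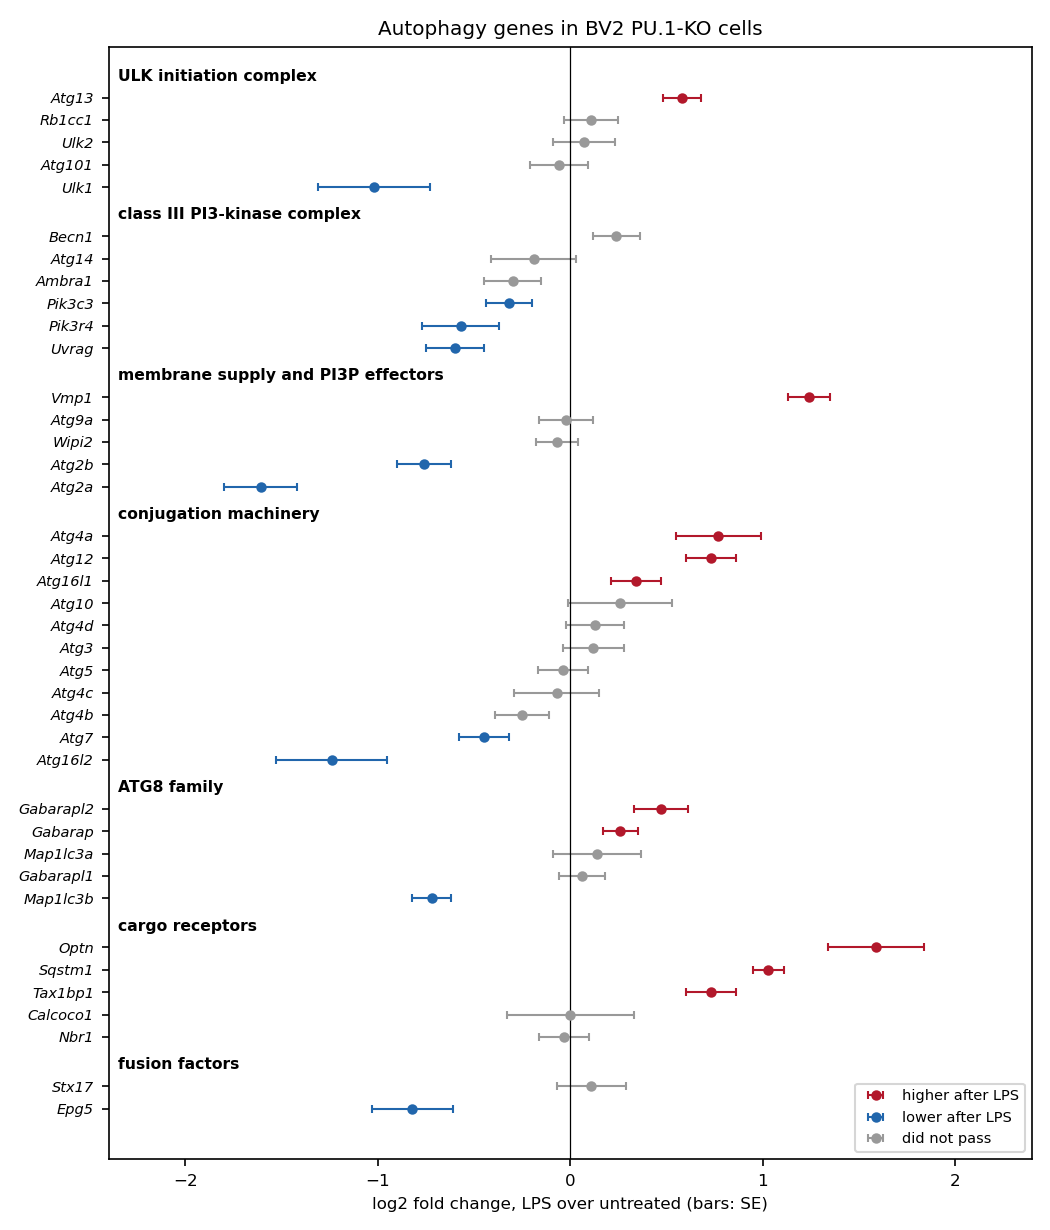
Log2 fold change of LPS over untreated libraries (x axis) for the 39 tested autophagy genes, grouped by role, with bars for the standard error from the edgeR fit of 2 libraries per group. Of the genes called, 10 rose and 10 fell, and the share called, 51.3%, lies at that of all tested genes, 51.9%. From small counts a role, the class III PI3-kinase complex and the fusion factors hold falls only. The cargo receptors hold rises only, and the other roles hold both.

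The promoters of the 6 genes that changed 2-fold or more are shown because they carry the largest differences, a choice made after their values were seen. Each is the 250 bases before the annotated start, 5′ to 3′ on the gene's strand, from RefSeq on GRCm38.p6, where 33 of the 40 genes have a window. The count files name no coordinates, so the windows were matched by symbol. Vmp1 has more than 1 annotated start, and the first listed is shown. The windows lie at chr11:50210821-50211070, minus strand (Sqstm1), chr11:86683837-86684086, minus strand (Vmp1), chr2:5064118-5064367, minus strand (Optn), chr5:110810082-110810331, minus strand (Ulk1), chr19:6241418-6241667, plus strand (Atg2a) and chr7:101302089-101302338, minus strand (Atg16l2). Capitals mark matches on either strand to the NF-kB consensus or to the core of the antioxidant response element, TGACNNNGC.
Sqstm1: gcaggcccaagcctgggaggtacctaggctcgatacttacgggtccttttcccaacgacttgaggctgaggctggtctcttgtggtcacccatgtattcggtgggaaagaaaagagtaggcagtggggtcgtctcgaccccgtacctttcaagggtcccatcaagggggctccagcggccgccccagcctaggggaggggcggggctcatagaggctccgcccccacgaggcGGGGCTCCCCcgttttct
Vmp1: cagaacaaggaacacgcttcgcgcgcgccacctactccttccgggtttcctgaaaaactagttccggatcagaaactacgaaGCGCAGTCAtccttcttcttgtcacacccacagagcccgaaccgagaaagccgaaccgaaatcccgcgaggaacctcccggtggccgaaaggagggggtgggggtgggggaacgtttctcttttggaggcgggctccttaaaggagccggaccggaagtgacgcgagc
Optn: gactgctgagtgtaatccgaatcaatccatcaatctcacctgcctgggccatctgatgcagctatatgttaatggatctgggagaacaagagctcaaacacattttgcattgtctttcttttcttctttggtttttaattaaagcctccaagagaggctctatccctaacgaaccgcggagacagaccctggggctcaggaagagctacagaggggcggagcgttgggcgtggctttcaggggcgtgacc
Ulk1: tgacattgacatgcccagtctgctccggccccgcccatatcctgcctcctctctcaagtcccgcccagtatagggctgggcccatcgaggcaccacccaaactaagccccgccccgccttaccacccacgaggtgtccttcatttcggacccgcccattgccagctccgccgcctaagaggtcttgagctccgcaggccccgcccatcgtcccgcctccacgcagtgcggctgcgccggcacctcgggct
Atg2a: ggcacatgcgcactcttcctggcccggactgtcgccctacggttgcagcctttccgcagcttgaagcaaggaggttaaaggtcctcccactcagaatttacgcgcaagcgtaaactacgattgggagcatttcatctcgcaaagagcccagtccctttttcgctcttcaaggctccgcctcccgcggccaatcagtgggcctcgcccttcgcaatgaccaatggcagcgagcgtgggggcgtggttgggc
Atg16l2: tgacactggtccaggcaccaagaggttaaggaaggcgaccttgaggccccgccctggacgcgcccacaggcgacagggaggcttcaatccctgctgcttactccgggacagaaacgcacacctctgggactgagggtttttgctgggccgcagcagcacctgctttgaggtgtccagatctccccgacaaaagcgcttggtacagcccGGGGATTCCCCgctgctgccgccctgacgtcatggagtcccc

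Both strands were searched. The NF-kB consensus matched 9 to 18 bases before the start of Sqstm1, a gene that rose, and 32 to 42 bases before that of Atg16l2, a gene that fell, where matches overlap on both strands. It was present in 2 of 39 windows of autophagy genes (5.13%) and in 3.9% of all 32851 windows of this length. TGACNNNGC matched in 6 of the 39 windows (15.4%), among them all 3 of Vmp1, against 10.2% of all windows. The E-box CACGTG, which holds the core bound by TFEB and related factors, was in the windows of Atg3, Atg5 and Atg7 (7.69%, against 6.02% of all windows). No window of an autophagy gene held the core of the interferon-stimulated response element (2.98% of all windows) or TGANTCA, the AP-1 site (6.75%). These matches describe letters and were not tested as binding sites.

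Among the genes of the ULK initiation complex, Atg13 rose, Ulk1 fell and Ulk2, Atg101 and Rb1cc1 did not pass. Atg13, which encodes the scaffold that links the kinase to FIP200, had 168 and 178 CPM in the LPS libraries, against 112 and 120 CPM in the untreated libraries. Both LPS values lay above both untreated values, a 1.5-fold rise (log2 fold change 0.58, SE 0.10, adjusted p = 1.1e-06 by edgeR). The kinase gene Ulk1 had 16 and 17 reads, or 5.55 and 5.16 CPM, in the LPS libraries, against 60 and 46 reads, or 11.5 and 10.2 CPM, in the untreated libraries. It fell by 1.02 on the log2 scale (SE 0.29, adjusted p = 0.0028 by edgeR), from few reads. Its paralogue Ulk2, with 30.5 and 27.6 CPM in the LPS libraries and 26.6 and 28.8 CPM in the untreated libraries, gave overlapping groups and a log2 fold change of 0.07 (SE 0.16). Atg101, an ATG13 partner, and Rb1cc1, which encodes FIP200, lay between 28.8 and 41.3 CPM in all libraries with log2 fold changes of -0.06 and 0.11. DESeq2 did not call Ulk1 (adjusted p = 0.088). After GC correction its log2 fold change was -0.68, less than 2-fold, and its call was lost (adjusted p = 0.051 by edgeR). The adjusted p of Ulk1 ranged from 1.2e-05 to 0.088 over its 15 alternatives. Atg13 lost its call when only library size set the scale (adjusted p = 0.067 by edgeR, range 7.9e-13 to 0.067).

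In the class III PI3-kinase complex 3 of 6 genes fell and none rose, beside 25.3% lower and 26.6% higher over all tested genes, a small count from which nothing particular to the complex is read. Uvrag, which encodes a beclin 1 partner of the endosomal form of the complex, had 35.7 and 24.6 CPM in the LPS libraries, against 44.4 and 46.2 CPM in the untreated libraries. The LPS libraries lay below the untreated ones and apart from each other, and Uvrag fell by 0.60 on the log2 scale (SE 0.15, adjusted p = 0.00084 by edgeR). The catalytic subunit gene Pik3c3 (VPS34) had 57.5 and 65.9 CPM in the LPS libraries, against 79.9 and 74.5 CPM in the untreated libraries, a log2 fold change of -0.32 (SE of 0.12, with adjusted p = 0.022 by edgeR). Pik3r4, which encodes the regulatory subunit VPS15, had 29.5 and 17 CPM in the LPS libraries, against 29.6 and 38.7 CPM in the untreated libraries. Its groups nearly touch, with a log2 fold change of -0.57 (SE of 0.20, with adjusted p = 0.024 by edgeR). Becn1, the gene of the scaffold beclin 1, did not pass at 63.8 and 57.7 CPM in the LPS libraries and 52.2 and 50.4 CPM in the untreated libraries (log2 fold change 0.24, SE 0.12). Atg14, which directs the complex to autophagosomes, and Ambra1, a beclin 1 regulator, gave log2 fold changes of -0.19 and -0.30 and did not pass.

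Each of these falls lost its call under at least 1 alternative. Uvrag lost it without LPS replicate 2 (log2 fold change -0.34, adjusted p = 0.085, range 3.2e-09 to 0.085 over 15 alternatives). Pik3r4 lost it without LPS replicate 2 (log2 fold change -0.20, adjusted p = 0.38), without untreated replicate 2 (log2 fold change -0.38, adjusted p = 0.16), with DESeq2 (adjusted p = 0.13) and after GC correction (adjusted p = 0.084), in a range of 2.3e-07 to 0.38. Pik3c3 lost it without untreated replicate 1 (adjusted p = 0.19), without untreated replicate 2 (adjusted p = 0.057), without LPS replicate 1 (adjusted p = 0.13) and with DESeq2 (adjusted p = 0.16), in a range of 9.3e-07 to 0.19. Ambra1 passed as lower without LPS replicate 1 (log2 fold change -0.47) and with upper quartile scaling (log2 fold change -0.39, adjusted p = 0.025 by edgeR).

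Among the genes of membrane supply and PI3P effectors, both ATG2 genes fell and Vmp1 rose. Atg2a, which encodes a lipid transporter between the endoplasmic reticulum and the growing membrane, had 13.9 and 12.75 CPM in the LPS libraries, against 47.1 and 33.4 CPM in the untreated libraries. The untreated libraries differed from each other, yet both lay well above the LPS libraries, and the log2 fold change was -1.61 (SE 0.19, adjusted p = 1.4e-09 by edgeR). Its paralogue Atg2b had 45.05 and 33.7 CPM in the LPS libraries, against 60.6 and 72.5 CPM in the untreated libraries, a log2 fold change of -0.76 (SE of 0.14, with adjusted p = 9.4e-06 by edgeR). Vmp1, whose product is a scramblase of the endoplasmic reticulum needed for autophagosome formation, had 150 and 157 CPM in the LPS libraries, against 70.2 and 59.5 CPM in the untreated libraries. That is a 2.36-fold rise with groups far apart (log2 fold change 1.24, SE 0.11, adjusted p = 4.0e-14 by edgeR). These 3 calls held under all 15 alternatives. The microRNA gene Mir21a lies on the same strand as Vmp1 and overlaps its exons in GENCODE vM21, so reads of a longer miR-21 primary transcript could not be told apart from Vmp1. Mir21a was at 0 counts in all libraries, which does not show how many such reads the Vmp1 counts hold.

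Atg9a, which encodes the transmembrane scramblase of seed vesicles, had 39.2 and 39.5 CPM in the LPS libraries and 41.1 and 38.3 CPM in the untreated libraries. Wipi2, the PI3P effector gene that recruits ATG16L1, had 94.95 and 93.5 CPM in the LPS libraries and 96.6 and 102 CPM in the untreated libraries. Neither passed, with log2 fold changes of -0.02 (SE 0.14) and -0.07 (SE 0.11). Wipi1, a paralogue of Wipi2, had no read in the LPS libraries and 0 and 1 in the untreated libraries. It was the single autophagy gene that could not be tested.

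Of the 11 genes of the conjugation machinery 3 rose, 2 fell and 6 did not pass, beside 26.6% higher and 25.3% lower over all tested genes. The sign of 1 that rose, Atg16l1, turned when only library size set the scale. Atg12, the ubiquitin-like modifier that is joined to ATG5, had 60.7 and 58.0 CPM in the LPS libraries, against 39.0 and 32.3 CPM in the untreated libraries, a 1.65-fold rise with separate groups (log2 fold change 0.73, SE 0.13, adjusted p = 7.8e-06 by edgeR). Atg4a, a protease that trims ATG8 proteins, had 14.9 and 19.1 CPM in the LPS libraries, against 10.7 and 9.29 CPM in the untreated libraries (log2 fold change 0.77, SE 0.22, adjusted p = 0.0036 by edgeR). Atg16l2, a paralogue of the ATG16L1 scaffold gene, had 13 and 17 reads, or 4.505 and 5.16 CPM, in the LPS libraries, against 62 and 50 reads, or 11.9 and 11.1 CPM, in the untreated libraries. It fell by 1.24 on the log2 scale (SE 0.29, adjusted p = 4e-04 by edgeR). Atg16l1 itself, the scaffold that places ATG8 lipidation on the membrane, had 53.0 and 49.2 CPM in the LPS libraries, against 43.4 and 36.7 CPM in the untreated libraries, a log2 fold change of 0.34 (SE of 0.13, with adjusted p = 0.027 by edgeR). The gene of the E1-like enzyme, Atg7, had 37.4 and 46.8 CPM in the LPS libraries, against 58.7 and 56.4 CPM in the untreated libraries, a log2 fold change of -0.45 (SE of 0.13, with adjusted p = 0.0041 by edgeR). The E2-like enzyme genes Atg3 and Atg10 (log2 fold changes 0.12 and 0.26), Atg5 (-0.04) and the protease genes Atg4b, Atg4c and Atg4d (-0.25, -0.07 and 0.13) did not pass.

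The Atg12 and Atg16l2 calls held under all 15 alternatives. Atg4a lost its call without LPS replicate 2 (adjusted p = 0.094), with DESeq2 (adjusted p = 0.094) and when only library size set the scale (adjusted p = 0.11, range 0.001 to 0.11). Atg7 lost it without LPS replicate 1 (adjusted p = 0.081), with DESeq2 (adjusted p = 0.082) and after GC correction (adjusted p = 0.068, range 6.4e-08 to 0.082). Atg16l1 lost it without untreated replicate 2 (adjusted p = 0.34), without LPS replicate 1 (adjusted p = 0.11), with DESeq2 (adjusted p = 0.20), with upper quartile scaling (adjusted p = 0.11) and after GC correction (adjusted p = 0.11). Library sizes alone gave Atg16l1 a log2 fold change of -0.02 (adjusted p = 0.93, range 0.023 to 0.93).

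In the ATG8 family Map1lc3b fell while Gabarap and Gabarapl2 rose, although the sign of Gabarap turned when only library size set the scale. Map1lc3b, the LC3B gene whose product is the usual marker of autophagosomes, had 92.9 and 89.25 CPM in the LPS libraries, against 149.9 and 149.5 CPM in the untreated libraries. The libraries of each group lay close together and the groups far apart, with a log2 fold change of -0.72 (SE of 0.10, with adjusted p = 3.7e-08 by edgeR) that held under all 15 alternatives. Gabarapl2 (GATE-16) had 45.7 and 41.3 CPM in the LPS libraries, against 31.2 and 31.6 CPM in the untreated libraries (log2 fold change 0.47, SE 0.14, adjusted p = 0.0048 by edgeR). Gabarap, the most abundant of the family, had 258 and 304 CPM in the LPS libraries, against 229.7 and 242 CPM in the untreated libraries, a rise of 1.19-fold (log2 fold change 0.26, SE 0.09, adjusted p = 0.015 by edgeR). Gabarapl1 (73.8 and 76.8 CPM in the LPS libraries, 70.6 and 74.5 CPM in the untreated libraries) and the low Map1lc3a (10.7 and 15.2 CPM in the LPS libraries, 11.3 and 12.6 CPM in the untreated libraries) had overlapping groups and did not pass, although Map1lc3a passed as higher after GC correction (log2 fold change 0.61, adjusted p = 0.026).

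Both rises lost their calls under some alternatives. Gabarap lost it without LPS replicate 2 (log2 fold change 0.13, adjusted p = 0.23), without untreated replicate 1 (adjusted p = 0.19), without untreated replicate 2 (adjusted p = 0.071), with DESeq2 (adjusted p = 0.085) and with upper quartile scaling (adjusted p = 0.13). Library sizes alone gave it a log2 fold change of -0.10 (adjusted p = 0.39, range 8.1e-05 to 0.39). Gabarapl2 lost it without untreated replicate 1 (adjusted p = 0.057), with DESeq2 (adjusted p = 0.094) and when only library size set the scale (adjusted p = 0.54, range 0.0036 to 0.54). Reads of these short genes that also match processed copies elsewhere in the genome are not in unique counts, so their levels are uncertain.

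Shares within a library do not depend on how libraries are scaled. Map1lc3b made up 7.72% and 6.60% of the summed ATG8 level per kb of transcript in the LPS libraries, against 13.2% and 12.6% in the untreated libraries. Gabarap made up 65.6% and 68.8% in the LPS libraries, against 62.1% and 62.5% in the untreated libraries. Gabarapl2 held 9.38% and 7.53% in the LPS libraries, against 6.79% and 6.59% in the untreated libraries. Gabarapl1 held 13.9% and 12.9% in the LPS libraries, against 14.2% and 14.3% in the untreated libraries. The shares of these 4 genes did not overlap between groups, and those of Map1lc3a, at 3.32% to 4.18% over the 4 libraries, did. Such gaps are common with 2 against 2 libraries, as the CPM ranges of 75.1% of all tested genes did not overlap. Shares are parts of a whole and so are not separate results. That of Gabarapl1 was lower after LPS although its CPM did not fall (log2 fold change 0.06). With 2 against 2 libraries no two-sided exact permutation p below 0.333 is possible. The summed ATG8 level was 291 and 327 CPM per kb in the LPS libraries, against 274 and 286 CPM per kb in the untreated libraries. Unlike the shares, this sum depends on TMM scaling, so its direction is not secure. With library sizes alone the median log2 fold change of all tested genes was -0.36.

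**Figure D2:**
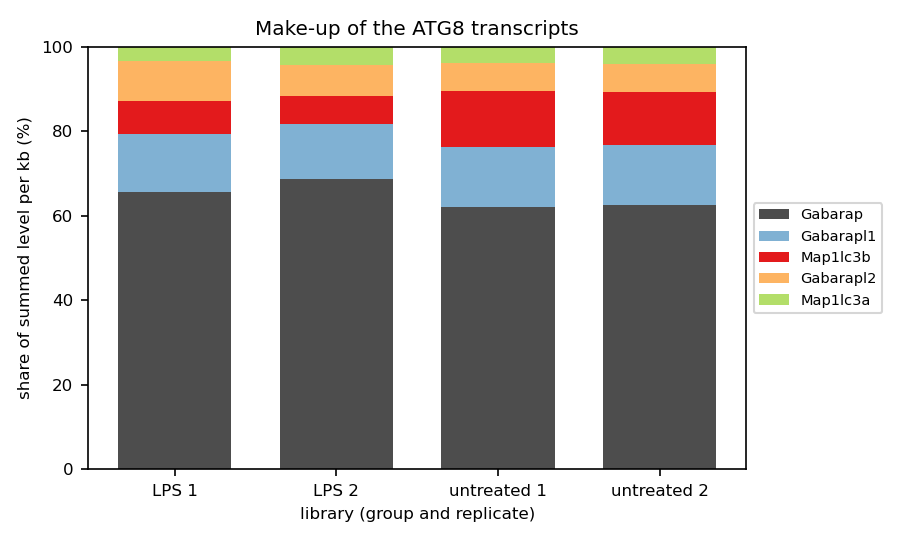
Share of each ATG8 gene in the family's summed level per kb of transcript (y axis, %) in each of the 4 libraries (x axis), 1 bar per library and no error bars. Map1lc3b takes 7.72% and 6.60% of the LPS bars and 13.2% and 12.6% of the untreated bars.

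Of the 5 cargo receptor genes 3 rose, none fell, and Nbr1 and Calcoco1 did not pass, beside 26.6% higher and 25.3% lower over all tested genes. Sqstm1 encodes p62, which binds ubiquitin and LC3 and also anchors signalling complexes. It had 758 and 877 CPM in the LPS libraries, against 396 and 404 CPM in the untreated libraries, a 2.04-fold rise (log2 fold change 1.03, SE 0.08, adjusted p = 6.3e-15 by edgeR). Optn, the gene of optineurin, a ubiquitin-binding receptor for bacteria and mitochondria, had 52 and 53 reads, or 18.02 and 16.1 CPM, in the LPS libraries, against 30 and 25 reads, or 5.74 and 5.53 CPM, in the untreated libraries. This 3.00-fold rise (log2 fold change 1.59, SE 0.25, adjusted p = 6.2e-07 by edgeR) was the largest among the autophagy genes. Tax1bp1, a related receptor that also curbs NF-kB signalling, had 67.9 and 72.6 CPM in the LPS libraries, against 46.5 and 37.8 CPM in the untreated libraries (log2 fold change 0.73, SE 0.13, adjusted p = 3.6e-06 by edgeR). All 3 calls held under the 15 alternatives, with a lowest log2 fold change of 0.67 for Sqstm1, 1.23 for Optn and 0.37 for Tax1bp1. Nbr1, a p62 relative, had 50.6 and 46.8 CPM in the LPS libraries and 48.6 and 50.6 CPM in the untreated libraries (log2 fold change -0.03, SE 0.13). Calcoco1, a receptor for parts of the endoplasmic reticulum, had 15 to 30 reads a library and a log2 fold change of 0 with an SE of 0.33, so a modest change was not detectable at this depth.

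Of the 2 fusion factors, Epg5 fell and Stx17 did not pass. Epg5, which encodes a tether of autophagosomes and lysosomes, had 14.2 and 9.715 CPM in the LPS libraries, against 22.8 and 19.02 CPM in the untreated libraries (log2 fold change -0.82, SE 0.21, adjusted p = 0.0011 by edgeR). Its call was lost without LPS replicate 2 (adjusted p = 0.051) and with DESeq2 (adjusted p = 0.057), in a range of 1.9e-07 to 0.057 over 15 alternatives. Stx17, the autophagosomal SNARE gene, had 22.5 and 27.0 CPM in the LPS libraries and 26.2 and 19.7 CPM in the untreated libraries, which overlap.

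Per kb of transcript the pathway spanned a wide range of levels. Sqstm1 at 306 CPM per kb and Gabarap at 208 CPM per kb were the highest in LPS-treated cells, and in untreated cells they stood at 150 and 174 CPM per kb, in the opposite order. Vmp1 averaged 55.1 CPM per kb in LPS-treated cells and 23.3 CPM per kb in untreated cells. The lowest tested genes in LPS-treated cells were Atg16l2, at 0.748 CPM per kb in LPS-treated cells and 1.77 CPM per kb in untreated cells, and Ulk1, at 1.03 CPM per kb in LPS-treated cells and 2.08 CPM per kb in untreated cells. These levels divide by the longest annotated transcript of each gene and would rise where a shorter form is the one expressed.

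**Figure D3:**
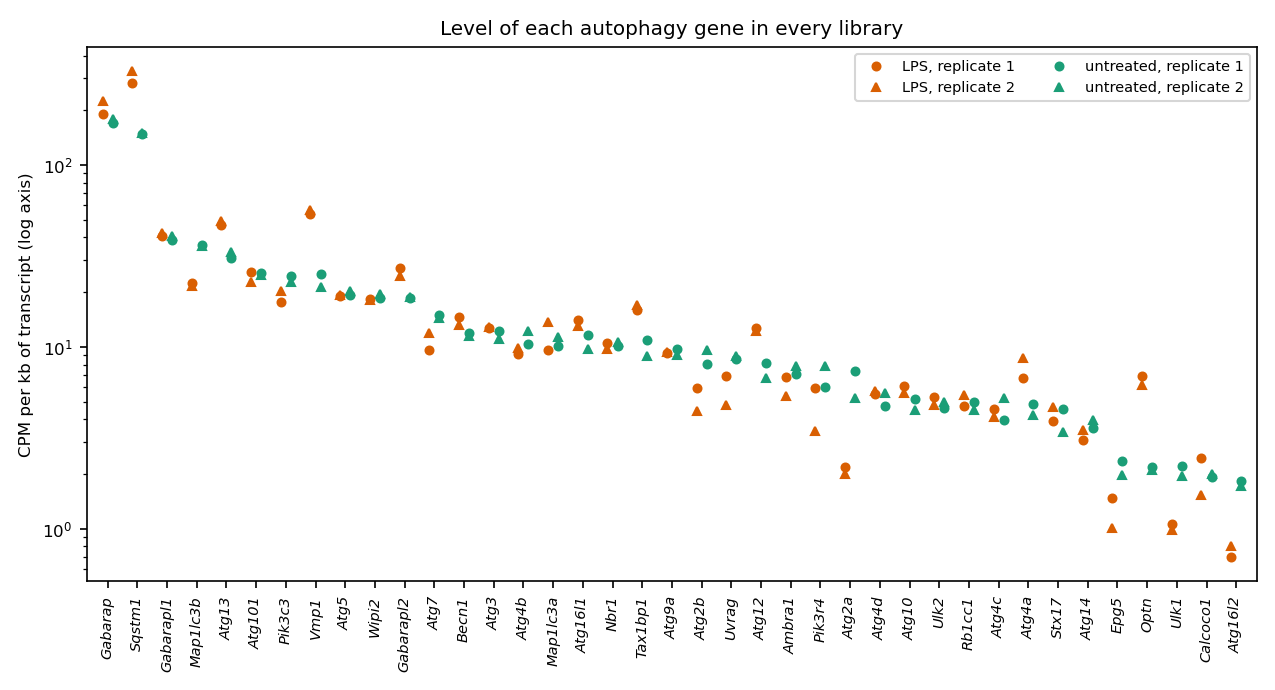
CPM per kb of the longest annotated transcript (y axis, log scale) of the 39 tested autophagy genes, ordered by their untreated mean, with 1 point per library (orange LPS, green untreated). Sqstm1 and Gabarap stand above the rest in every library, and Vmp1, Optn, Atg2a, Ulk1 and Atg16l2 show clear gaps between groups.

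Paralogues were compared by the log2 ratio of their counts within a library, which library scaling cannot change. Ulk1 to Ulk2 stood at -2.46 and -2.42 in the LPS libraries, against -1.21 and -1.50 in the untreated libraries. Atg16l1 to Atg16l2 stood at 3.56 and 3.25 in the LPS libraries, against 1.87 and 1.73 in the untreated libraries. In both pairs the balance lay further towards the more abundant paralogue after LPS, with no overlap between groups. Both rest on few reads in the LPS libraries, 16 and 17 of Ulk1 and 13 and 17 of Atg16l2. Such gaps are common, as the CPM ranges of 75.1% of all tested genes did not overlap. Atg2a to Atg2b was -1.70 and -1.40 in the LPS libraries, against -0.37 and -1.12 in the untreated libraries, where the untreated libraries lay further apart than the nearest values of the groups. Its difference of -0.81 between group means was -0.43 without untreated replicate 1. Map1lc3b to Map1lc3a was 3.11 and 2.56 in the LPS libraries, against 3.73 and 3.57 in the untreated libraries, a difference of -0.82 that was -0.54 without LPS replicate 2. Here the balance moved the other way, towards the less abundant paralogue. Gabarapl1 to Gabarap differed by -0.19 between the group means (-0.11 without LPS replicate 2), and Atg4c to Atg4b overlapped between groups. No p below 0.333 is possible for these ratios.

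**Figure D4:**
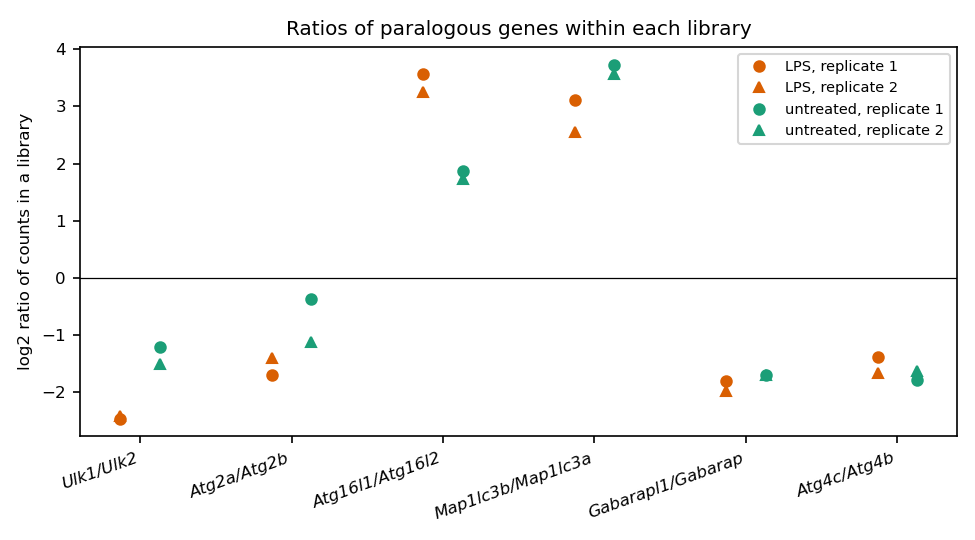
Log2 ratio of read counts within a library (y axis) for 6 pairs of paralogous genes (x axis), 1 point per library, with orange points for LPS and green points for untreated libraries. Ulk1 to Ulk2 and Atg16l1 to Atg16l2 show the widest gaps between groups, with differences of -1.08 and 1.60 between group means.

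The autophagy genes that fell had a median transcript of 5180 nt, against 2730 nt for those that rose and 4190 nt for those that did not pass. Over all tested genes those medians were 3400, 3540 and 3350 nt. Across the 39 autophagy genes the log2 fold change had a Spearman rho of -0.51 with transcript length and of -0.38 with GC content. Across 9955 tested genes with a transcript the values were 0.03 and -0.32. These are descriptions across genes that share libraries and depth, and genes are not independent replicates. Median GC content was 51.2% in the autophagy genes that fell and 45.3% in those that rose, beside 52.8% and 46.6% over all tested genes. With offsets corrected for GC content 10 autophagy genes were higher and 7 lower, beside 2682 higher and 2244 lower of all 9992 tested genes.

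**Figure D5:**
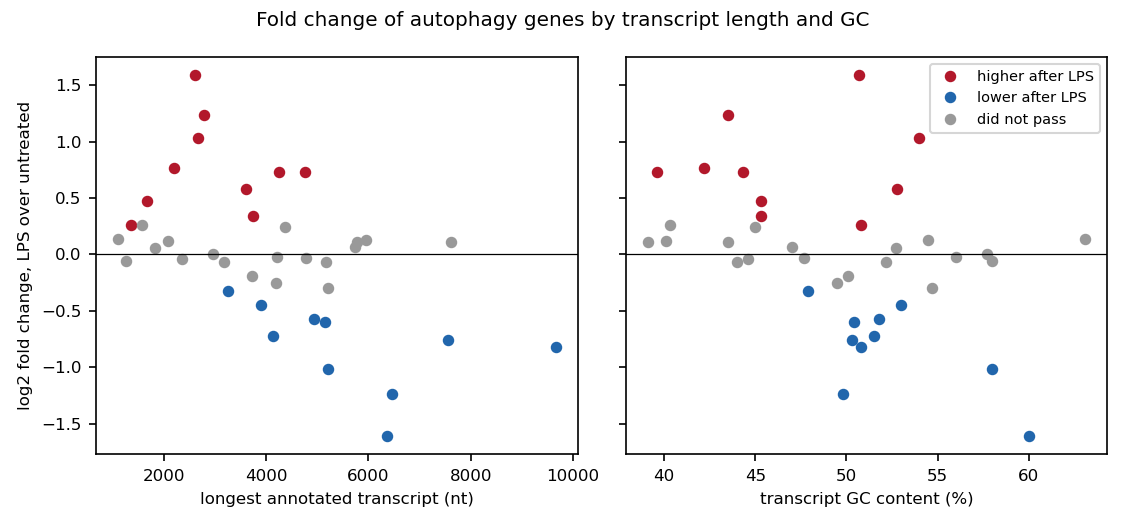
Log2 fold change of LPS over untreated libraries (y axis) of the 39 tested autophagy genes against the length of the longest annotated transcript in nt (left) and its GC content in % (right), 1 point per gene. Genes that fell have a median length of 5180 nt and those that rose 2730 nt.

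Other genes of the pathway were taken from 4 lists with 69 distinct genes, of which 65 could be tested, and 17 rose and 17 fell. These are 52.3% of those tested, again at the background of 51.9%. In the list of mTORC1 and AMPK control, the nutrient and energy sensors upstream of the ULK complex, 9 of 20 tested genes fell and 2 rose, beside 25.3% lower and 26.6% higher over all tested genes. Sesn1, a sestrin that restrains mTORC1, had 15 and 25 reads in the LPS libraries, against 147 and 121 in the untreated libraries (log2 fold change -2.08, SE 0.23). Deptor, an inhibitory mTOR partner, averaged 29.8 ± 3.47 CPM in LPS-treated cells and 69.7 ± 4.74 CPM in untreated cells (SD, n = 2 each). Tsc2, the gene of the tuberin GTPase-activating protein that switches off RHEB, averaged 14.4 ± 3.18 CPM in LPS-treated cells and 42.3 ± 4.21 CPM in untreated cells, a log2 fold change of -1.57 (SE 0.18). The remaining called genes of the list are named after their values were seen. Rptor (log2 fold change -0.38), Rragd (-1.30), Flcn (-0.83), Prkaa2 (-0.47), Stk11 (-0.57) and Ddit4 (-2.13) also fell. The 2 that rose were Rheb, the activator of mTORC1 (log2 fold change 0.39), and Prkaa1, a catalytic AMPK subunit gene (0.57). No direction of mTORC1 activity is read from these changes.

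Of 10 transcription factor genes tied to autophagy and lysosomes, 4 rose and 3 fell, beside 26.6% higher and 25.3% lower over all tested genes. Within the MiT family, which binds E-boxes in promoters of lysosomal and autophagy genes, Mitf and Tfec rose, Tfeb fell and Tfe3 did not pass (log2 fold change 0.24, SE 0.16). Tfeb had 19 and 26 reads in the LPS libraries, against 126 and 86 in the untreated libraries (log2 fold change -1.57, SE 0.24, adjusted p = 1.9e-07 by edgeR). Mitf averaged 82.2 ± 4.25 CPM in LPS-treated cells and 36.3 ± 1.64 CPM in untreated cells, and Tfec 52.2 ± 3.81 CPM in LPS-treated cells and 21.1 ± 0.138 CPM in untreated cells (SD, n = 2 each). Their folds were 2.26 and 2.48, with edgeR adjusted p of 2.7e-11 and 1.3e-10.

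Among 19 tested further autophagosome factors 5 rose and 3 fell, beside 26.6% higher and 25.3% lower over all tested genes. Plekhm1, an adaptor for fusion with lysosomes, averaged 96.8 ± 1.71 CPM in LPS-treated cells and 225 ± 3.29 CPM in untreated cells (log2 fold change -1.22, SE 0.10). Bcl2l1, whose product BCL-XL binds beclin 1 and blocks apoptosis, had 76 reads in each LPS library, against 18 and 19 in the untreated libraries (6.44-fold). Ykt6, a SNARE of autophagosome fusion, had 581 and 640 reads in the LPS libraries, against 695 and 585 in the untreated libraries, a 1.51-fold rise after TMM scaling. Among 17 tested further selective receptors and receptor kinases 6 rose and 2 fell, beside the same 26.6% and 25.3% of all tested genes. Lgals8, a galectin that detects damaged vesicles, had 350 and 377 reads in the LPS libraries, against 247 and 204 in the untreated libraries, a 2.55-fold rise. Bnip3, a mitophagy receptor gene, had 101 and 156 reads in the LPS libraries, against 71 and 47 in the untreated libraries, a 3.43-fold rise. Phb2, the gene of a receptor on the inner mitochondrial membrane, had 300 and 374 reads in the LPS libraries, against 1036 and 807 in the untreated libraries, and fell by 0.79 on the log2 scale. The adjusted p of the 12 genes chosen by rule from these lists ran from 2.3e-15 (Plekhm1) to 4.3e-07 (Ykt6) by edgeR. Among them Ykt6 alone lost its call under any of the 15 alternatives, when only library size set the scale (adjusted p = 0.05).

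On the strand opposite to each gene, 2 autophagy genes had enough reads to be tested, Atg7 and Atg4d, and none was called, beside 35% of 757 genes tested there.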

How the data were processed

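Per the labels' protocols, ribosomal RNA was removed from total RNA and directional libraries were prepared. The extraction text speaks of hMSCs, although organism and symbols are mouse. The authors deposited read counts without normalization, 1 file per library, laid out as STAR writes them for genes, which holds reads placed uniquely. Tools in the submitters' processing notes are STAR 2.5.1, CASAVA 1.8.2, Trimmomatic 0.33 and DESeq2. The notes give hg19 as build, which conflicts with the mouse symbols. Which annotation was used is not given in the sources.

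The reverse-strand counts were used and the 4 summary lines left out. Counts were fitted with edgeR 4.0.16 (robust quasi-likelihood fit on treatment alone, TMM scaling, filterByExpr, two-sided) in R 4.3.3 on all 9992 genes kept, with Benjamini-Hochberg adjusted p below 0.05. The SE of a log2 fold change is its size divided by the square root of F, an approximation. Shares and ratios have no test. Length and GC content come from the longest GENCODE vM21 transcript of a symbol. The fit was also run on simulated counts in which few genes changed, about as many up as down. That run cannot speak for the scaling here, where 51.9% of tested genes were called.

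The autophagy genes and lists were chosen with earlier results of these data known. All 40 genes are accounted for. Given in full are up to 3 called genes per role by smallest p and every called gene with a 2-fold change, and up to 3 per further list. The labels do not say that libraries came from separate cultures, so p-values measure only the spread between these libraries, which may be technical. Libraries of a group were kept as 2 samples, since their counts differed beyond sampling noise (chi-square over degrees of freedom 2.44 for LPS and 1.52 for untreated). The alternatives tried were scaling by RLE, by upper quartile and by library size, DESeq2 1.42.0, 2 other filters, unstranded counts, a replicate block, GC-corrected offsets, the fit without 5 abundant entries, and leaving out each library. The block with GC-corrected offsets was added after seeing the data.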

Additional observations from a re-analysis of the deposited data

How the results depend on the processing

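With 2 libraries a group, depth limits genes such as Ulk1, Atg16l2, Optn and Calcoco1. When only library size set the scale, under which the median over autophagy genes and that over all genes were both -0.36 (log2), 5 autophagy genes were higher and 19 lower, beside 1379 (13.8%) and 4778 (47.8%) of all genes and 8 and 32 of the further pathway genes. Atg101, Atg14, Ambra1, Atg9a, Wipi2, Atg4b, Atg5, Nbr1 and Gabarapl1 then passed as lower. It turned Atg16l1 to -0.02, Gabarap to -0.10 and Gabarapl1 to -0.30 on the log2 scale. Upper quartile scaling moved the autophagy median to -0.10, as it did that of all genes. It gave 8 higher and 12 lower autophagy genes, beside 2222 and 3056 of all tested genes, and Ambra1 and Atg4b then passed as lower. With DESeq2 6 autophagy genes were higher and 5 lower, 11 of 39, beside 33.3% of all genes, where 1838 were higher and 1486 lower. The change in share of Map1lc3b, -5.77 percentage points, was -11.7 without division by length and -9.00 with the shortest transcript, and that of Gabarap, 4.90 points, was 8.65 and 7.52. Leaving out each library in turn gave 8 to 9 higher and 7 to 9 lower autophagy genes, beside 2114 to 2547 higher and 1949 to 2370 lower over all genes. The paralogue ratios kept their direction in every such fit and with unstranded counts. For autophagy genes counted on the opposite strand the calls ranged from 0 to 1. The cause of these moves was not tested, other than by the scaling shift itself.

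Replicate numbers are shared by the groups, and deviations of same-numbered libraries from their group means had a correlation of -0.044 over 9992 genes. With 2 libraries a group and sampling noise in each, this value cannot decide whether same-numbered libraries were paired. With a replicate block 10 autophagy genes were higher and 10 lower (2658 and 2513 over all genes), and no call of an autophagy gene changed. With the block and GC-corrected offsets the counts were 10 and 8 (2635 and 2204 over all genes), and Ulk1, Atg7 and Atg16l1 lost their calls (adjusted p = 0.067, 0.074 and 0.12). A planned ratio of Wipi1 to Wipi2 was not run, as Wipi1 had 1 read.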

Other observations

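Among reads counted on the strand opposite to each gene, 35% of 757 tested genes were called and 2 autophagy genes had enough reads to be tested. Atg4d had 15 and 24 such reads in the LPS libraries, against 40 and 37 in the untreated libraries, and its exons overlap those of Kri1 on the other strand in GENCODE vM21. Atg7 had 7 and 6 in the LPS libraries, against 27 and 13 in the untreated libraries. Neither passed with edgeR (0 calls, 0 at an unadjusted p below 0.05) or with DESeq2 (0 and 0), while Sqstm1 could be tested and was called without LPS replicate 1.

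Unstranded counts of Atg4a were 35.8% of its stranded counts, and those of Becn1, whose exons overlap Cntd1, were 80.7%. Where the missing reads went was not tested, and no exon overlap of Atg4a with another gene was found in GENCODE vM21. The log2 fold change of Atg4a was 1.08 (edgeR adjusted p = 0.0087) from unstranded counts, in a range of 0.001 to 0.11 over its 15 alternatives, and 0.77 from stranded counts.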
